A study of Mus musculus with 12 samples.

Results

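The genes described here are 9 members of the JAK-STAT signalling pathway, 5 that encode STAT transcription factors (*Stat2*, *Stat3*, *Stat4*, *Stat5a* and *Stat6*) and 4 that encode SOCS-family inhibitors (*Socs1*, *Socs2*, *Socs3* and *Cish*). They were picked by name, and all 9 were found among the 12850 genes of the deposited RNA-seq table. RNA came from thioglycollate-elicited PECs, the cells that gather in the mouse peritoneal cavity after an irritant is injected (2 ml of 4% thioglycollate, 3.5 days before collection). WT mice were compared with *Zc3h12a* S513A/S513A mice (S513A), a CRISPR/Cas9 knock-in on the C57BL/6 background in which a serine of the RNase Regnase-1 is replaced by alanine in all cells. PECs of each genotype were left without LPS (0 hr) or received 100 ng/ml LPS, a bacterial cell wall component, for 4 or 8 hr. Each of the 6 groups held 2 libraries, 12 in all. The labels do not say whether the 2 libraries came from separate mice, so p-values measure the spread between these libraries, which may be technical.

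Cytokines and interferons signal by bringing their receptors together, which activates the Janus kinases bound to the receptor tails. The kinases phosphorylate STAT proteins, and paired STATs enter the nucleus and switch on genes that carry GAS or ISRE elements. SOCS genes are among those targets, and their products bind the kinases or the receptors and damp the signal, a classical negative feedback loop. In macrophages, LPS does not act on a STAT-coupled receptor itself. It induces interferon and other cytokines, which then act on the same or neighbouring cells.

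Each library held 9525979 to 12439960 reads on the genes of the table. Values are log2 CPM (reads scaled to a common library size, with 0.5 read added to each count), and the floor of 3 reads lies at a log2 CPM of -2.04 to -1.30. Macrophage markers were abundant, with a sum of 16165 to 26353 CPM over the 7 genes of the list, *Adgre1*, *Cd68*, *Csf1r*, *Itgam* and *Lyz2* included. Of lymphocyte markers, 2 of 7 T cell genes summed to 1.11 to 2.64 CPM, 2 of 7 NK cell genes to 0.0697 to 3.83 CPM and 5 of 6 B cell genes to 10.1 to 25.9 CPM. The B cell sum was 10.1 to 16.0 CPM at 0 hr and 14.5 to 25.9 CPM with LPS. Of other lists, 3 of 7 neutrophil genes summed to 489 to 829 CPM. For dendritic cells, 6 of 7 genes summed to 668 to 1068 CPM, most of it *Itgax*. The sum of 3 of 6 eosinophil genes was 18.1 to 20.8 CPM at 0 hr and 4.71 to 6.25 CPM at 8 hr. Mast cell and mesothelial genes (4 of 6 each) summed to 1.76 to 3.84 and 0.541 to 3.41 CPM. Resident peritoneal macrophage markers moved with the groups, from 768 and 829 CPM in the S513A libraries at 0 hr to 2325 and 4968 CPM in the WT libraries at 4 hr, and most of that sum was *Fn1*. The WT libraries at 4 hr also differed most from each other, with an SD of 0.40 for the log2 differences between replicates over genes, against 0.16 to 0.34 in the other groups. *Zc3h12a* itself had 600 and 476 reads in WT and 362 and 405 reads in S513A at 0 hr, but the knock-in changes a codon, so read counts do not check these labels. In bulk RNA, a change in the share of a cell type and a change of RNA per cell cannot be told apart.

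LPS raised most of the 9 genes in both genotypes. Differences were tested with limma over 11885 genes, with p-values adjusted over all of them. At 4 hr, 7 members were higher and 1 was lower in WT, where 22.6% of all genes tested were called higher and 18.7% lower. In S513A, 6 members were higher and 1 was lower, against 23.1% and 20.2% of all genes. At 8 hr, WT had 6 members higher and 1 lower (19.4% and 14.9% of all genes), and S513A had 7 higher and 1 lower (20.9% and 19% of all genes). Members had a median log2 fold change at 4 hr of 1.55 in WT and 1.64 in S513A, beside 0.04 and -0.00477 over all genes tested. These counts and medians include *Cish* and *Socs2*, which had at most 0.81 and 0.96 CPM at 0 hr. Both reached the filter of 1 CPM in 2 libraries only with LPS, so they could be tested only because they were higher there. Leaving out the normalization factors of the libraries lowered the median log2 fold change of all genes by 0.27 in WT and by 0.23 in S513A at 4 hr and by 0.25 in WT at 8 hr. In that case the calls over all genes in WT at 4 hr split into 1594 higher and 3672 lower, against 2684 and 2222.

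**Figure D1:**
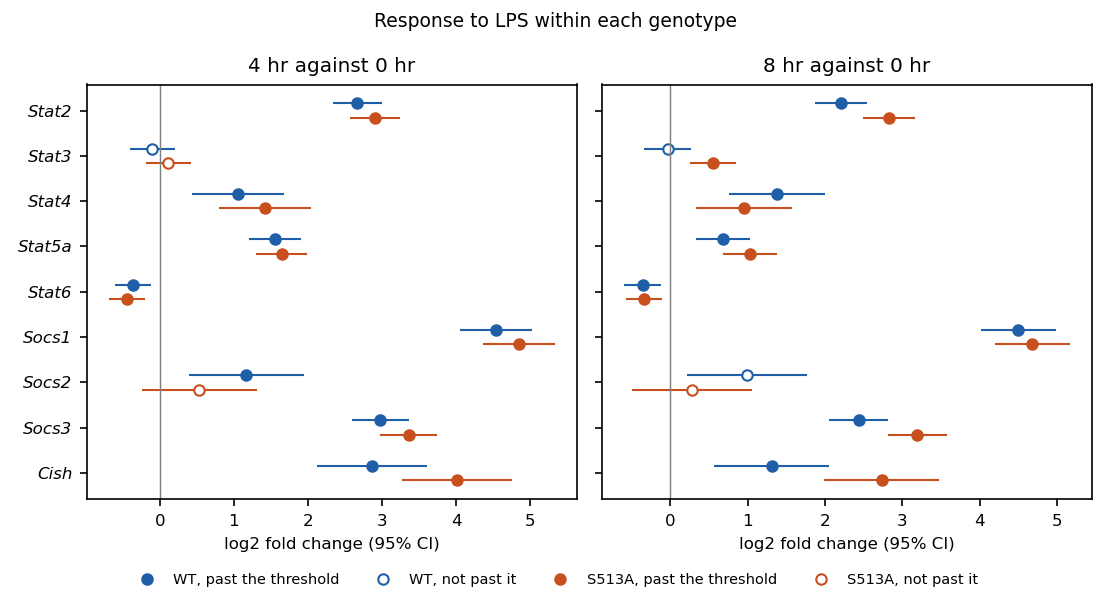
Log2 fold change (x axis, 95% confidence interval) of each member at 4 hr and 8 hr of LPS against 0 hr, in WT (blue) and S513A (orange), with filled points past an adjusted p of 0.05. *Socs1* lies farthest to the right in every comparison, at 4.84 in S513A at 4 hr, and *Stat6* lies to the left of 0 in all 4.

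*Socs1* encodes an inhibitor that binds and blocks the kinase domain of Janus kinases and is a main brake on interferon signalling. The gene lies at chr16:10782240-10785536 (GRCm38, minus strand). It had the largest response of the 9. WT libraries held 33 and 18 reads at 0 hr, 536 and 411 at 4 hr, then 450 and 414 at 8 hr. In S513A they held 18 and 21, then 466 and 452, then 463 and 444 reads. Every library with LPS was thus far above every library without it, and the genotypes overlapped at each time point. In WT the log2 fold change was 4.54 at 4 hr (SE 0.22, adjusted p = 6.89e-08), and only 107 of the genes tested had a larger one. The rise was still present at 8 hr (adjusted p = 1.27e-07 in WT and 7.96e-08 in S513A). From 4 to 8 hr the log2 fold change was -0.04 in WT and -0.16 in S513A, and neither passed the test (adjusted p = 0.921 and 0.617).

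*Socs3*, whose product attaches to gp130-type receptors and limits signalling through STAT3, was the most abundant of the 4 SOCS genes per length of exon. It is on chromosome 11 (chr11:117966079-117970047, minus strand). In the WT libraries log2 CPM went from 4.75 and 4.55 without LPS to 7.51 and 7.74 at 4 hr, then to 7.09 and 7.07 at 8 hr. For S513A the values were 3.74 and 4.33, then 7.47 and 7.31, then 7.27 and 7.18. The libraries with LPS did not overlap those without. The rise at 4 hr was 2.98 on the log2 scale in WT (SE 0.17, adjusted p = 2.68e-07) and 3.36 in S513A (adjusted p = 1.04e-07). After 8 hr the rise stood at 2.44 for WT and 3.19 for S513A (adjusted p = 1.71e-06 and 2.14e-07). WT libraries at 8 hr were both below those at 4 hr, by 0.54 on the log2 scale, with an adjusted p of 0.0623. The log2 fold change was -0.66 without WT replicate 1 at 4 hr (7.51), and leaving out replicate 2 (7.74) makes the fall smaller.

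*Cish* encodes CIS, which docks on activated cytokine receptors and is known as a target and inhibitor of STAT5. The gene, at chr9:107296026-107302784 (plus strand), was rare. WT libraries had 8 and 10 reads at 0 hr, 46 and 67 at 4 hr, then 17 and 18 at 8 hr. The S513A libraries had 4 and 3 reads at 0 hr, at or just above the floor, then 59 and 44, then 21 and 25. It was therefore a transient rise in both genotypes, with all libraries at 4 hr above all those at 8 hr and these above all those at 0 hr. In WT the log2 fold change was 2.86 at 4 hr (SE 0.34, adjusted p = 5.50e-05) and 1.31 at 8 hr (adjusted p = 0.0118). For S513A, whose starting level is so low that the fitted value depends on the added 0.5 read, it was 4.01 at 4 hr and 2.73 at 8 hr (adjusted p = 4.04e-06 and 9.33e-05). From summed reads the fold at 4 hr was 7.72 in WT (exact 95% interval 4.67 to 13.5) and 18.3 in S513A (8.56 to 46.6), and these intervals, which cover counting error only, overlap.

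Between 4 and 8 hr *Cish* fell by 1.56 in WT (adjusted p = 0.0124) and by 1.28 in S513A (adjusted p = 0.0252). At this depth single libraries carried some of these calls. The fall in WT had an adjusted p of 0.0945 without replicate 2 at 4 hr, 0.0833 without replicate 1 at 8 hr and 0.0722 without replicate 2 at 8 hr. The rise in WT at 8 hr had 0.0880 without replicate 1 at 0 hr and 0.0690 without replicate 2 at 8 hr. In S513A the fall had 0.0839 and 0.102 without replicates 1 and 2 at 4 hr and 0.187 without replicate 1 at 8 hr. An antisense gene and a pseudogene on the other strand overlap the exons of *Cish* by 479 and 261 bases in GENCODE M21. The reads were mapped as unstranded, so reads from these overlapping genes cannot be told apart from those of *Cish*.

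*Socs2*, an inhibitor best known from growth hormone signalling, was at the edge of detection. It spans chr10:95385362-95417180 on the minus strand, and 4.53% of its 50-base stretches of exon occur in other genes, most of them in *Gm9847*. In WT there were 10 and 12 reads at 0 hr, 22 and 19 at 4 hr, then 18 and 16 at 8 hr, and in S513A 9 and 8, then 9 and 11, then 12 and 7. WT libraries with LPS were all above those without, while the S513A libraries at 8 hr overlapped those at 0 hr. The WT rise at 4 hr was 1.17 on the log2 scale (SE 0.35, adjusted p = 0.0209), and from summed reads the fold was 2.29 (exact interval 1.33 to 4.04). This call did not hold without WT replicate 1 at 0 hr (adjusted p = 0.128) or without either WT library at 4 hr (0.0853 and 0.0529), nor without normalization factors (0.0646). At 8 hr the log2 fold change in WT was 0.99, with an adjusted p of 0.0501. It passed with no filter (0.0485), with log2 of CPM plus 1 (0.0343), under quantile normalization (0.0325), with voom weights (0.0361), with no trend in the prior (0.0103), with the hidden factor (0.0499) and without S513A replicate 1 at 4 hr (0.0475). In S513A it was 0.54 at 4 hr and 0.28 at 8 hr (adjusted p = 0.248 and 0.557), and the interval at 4 hr, -0.24 to 1.31, includes the WT value.

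**Figure D2:**
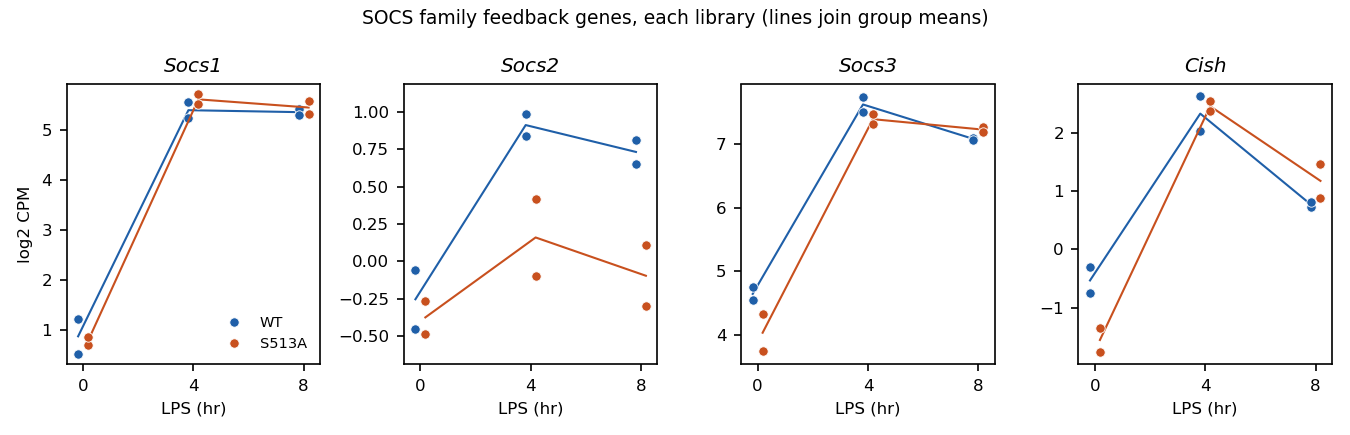
Log2 CPM (y axis, a separate range in each panel) of the 4 SOCS-family genes in each library against hours of LPS (x axis), with WT in blue, S513A in orange and lines through the group means. *Socs1* and *Socs3* stay high at 8 hr, *Cish* falls back from 4 to 8 hr, and *Socs2* moves within about 1.5 log2 units in all 12 libraries.

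RefSeq promoter windows, from 250 bases before to 50 bases after a start site on GRCm38.p6, were read for 8 of the 9 genes (10 windows, since *Stat4* and *Stat5a* have 2 each). The windows of the 3 SOCS genes and of *Stat2* are shown because these genes had the largest responses and their windows hold letters that match GAS or ISRE. The letters TTCNNNGAA (GAS, the element of STAT dimers), which read the same on both strands, are in 8.30% of all 32851 promoters and in 2 of the 10 windows. The letters GAAANNGAAA on either strand (ISRE, the element of the STAT2-containing interferon complex) are in 3.44% of promoters and in 3 of the 10 windows. Matches to these letters, and to the GAS form with a gap of 4 bases (TTCNNNNGAA, in 6.95% of promoters), are in capitals.
Cish, chr9:107296409-107296708, plus strand: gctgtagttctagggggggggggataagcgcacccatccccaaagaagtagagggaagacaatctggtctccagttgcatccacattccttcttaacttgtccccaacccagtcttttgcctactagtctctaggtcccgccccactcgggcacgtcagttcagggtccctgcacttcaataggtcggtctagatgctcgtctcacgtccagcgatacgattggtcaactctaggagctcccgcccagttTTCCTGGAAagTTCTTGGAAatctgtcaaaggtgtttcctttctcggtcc
Socs3, chr11:117969317-117969616, minus strand: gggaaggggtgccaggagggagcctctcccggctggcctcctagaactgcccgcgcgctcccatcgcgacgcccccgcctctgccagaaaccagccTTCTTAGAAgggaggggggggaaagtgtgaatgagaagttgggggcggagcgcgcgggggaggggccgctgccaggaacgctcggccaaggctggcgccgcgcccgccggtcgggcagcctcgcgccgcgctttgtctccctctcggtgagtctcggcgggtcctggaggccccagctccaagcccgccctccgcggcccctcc
Socs1, chr16:10785487-10785786, minus strand: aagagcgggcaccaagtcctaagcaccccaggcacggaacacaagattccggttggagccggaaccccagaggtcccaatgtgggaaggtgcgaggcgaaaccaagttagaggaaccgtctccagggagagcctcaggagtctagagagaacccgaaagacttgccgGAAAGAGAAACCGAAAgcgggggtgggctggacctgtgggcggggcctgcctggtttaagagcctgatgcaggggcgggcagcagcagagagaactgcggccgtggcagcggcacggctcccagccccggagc
Stat2, chr10:128270248-128270547, plus strand: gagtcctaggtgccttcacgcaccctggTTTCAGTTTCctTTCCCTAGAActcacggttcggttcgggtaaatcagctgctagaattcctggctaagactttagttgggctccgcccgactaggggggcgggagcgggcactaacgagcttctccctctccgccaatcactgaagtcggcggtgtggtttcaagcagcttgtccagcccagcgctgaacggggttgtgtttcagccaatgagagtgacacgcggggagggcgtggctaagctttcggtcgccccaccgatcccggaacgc
The *Cish* window holds 2 GAS matches, whose first bases are at +1 and +12 from the start site, and the *Socs3* window holds 1, at -154. *Socs1* has 2 overlapping ISRE matches, at -83 and -77. The *Stat2* window has an ISRE match at -222 and a GAS match with the wider gap at -210. Of the others, only the second *Stat4* window holds any of these 3 motifs, an ISRE match at -97. The loose NF-kappaB letters GGGNNNNNCC, on either strand, are in 8 of the 10 windows and in 50.8% of all promoters, and the AP-1 letters TGANTCA, which read the same on both strands, are in 0 of the 10 windows and in 7.81% of promoters. These matches describe letters in the windows and do not show binding.

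*Stat2* encodes a subunit, with IRF9, of the complex that type I interferon activates. It lies at chr10:128270559-128292849 (plus strand). WT libraries had log2 CPM values of 5.92 and 5.79 without LPS, 8.31 and 8.74 at 4 hr, then 8.08 and 8.06 at 8 hr. The S513A libraries were at 5.59 and 5.50, then 8.58 and 8.32, then 8.48 and 8.26. *Stat2* was thus the STAT gene with the largest response, and its libraries with LPS were all above those without. The rise at 4 hr was 2.67 in WT (SE 0.15, adjusted p = 2.35e-07), and in S513A its interval was 2.57 to 3.24 (adjusted p = 1.17e-07). After 8 hr the rise was 2.21 in WT and 2.82 in S513A (adjusted p = 1.33e-06 and 2.14e-07). In WT the level at 8 hr was 0.46 below that at 4 hr with an adjusted p of 0.0727. The log2 fold change was -0.67 without WT replicate 1 at 4 hr (8.31), and leaving out replicate 2 (8.74) makes the fall smaller.

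The list of the STAT2 partner *Irf9* with known interferon targets moved the same way. All 12 genes of this list were called higher at 4 and 8 hr in both genotypes. Among all genes, 22.6% in WT and 23.1% in S513A were called higher at 4 hr, and 19.4% and 20.9% at 8 hr. At 4 hr these 12 genes had a median rise of 6.17 in WT and 6.19 in S513A on the log2 scale. *Ifit1*, an antiviral RNA-binding protein, rose by 7.31 in WT and 7.22 in S513A, and *Mx1*, an antiviral GTPase, by 6.96 and 7.03.

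*Stat5a*, which acts downstream of GM-CSF and related cytokines, peaked at 4 hr. Its locus is chr11:100859351-100885169 (plus strand). The WT libraries had log2 CPM of 5.04 and 4.88 without LPS, 6.31 and 6.70 at 4 hr, then 5.65 and 5.62 at 8 hr. Those of S513A had 4.76 and 4.79, then 6.56 and 6.28, then 5.96 and 5.65. The 3 time points did not overlap within either genotype. *Stat5a* rose by 1.55 at 4 hr in WT (SE 0.16, adjusted p = 1.91e-05) and by 1.64 in S513A (adjusted p = 1.17e-05). It then fell by 0.87 from 4 to 8 hr in WT (adjusted p = 0.00538) and by 0.62 in S513A (adjusted p = 0.0228), and was still above 0 hr by 0.68 in WT and 1.02 in S513A (adjusted p = 0.00684 and 0.000484).

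Without WT replicate 2 at 0 hr, the *Stat5a* rise in WT at 8 hr had an adjusted p of 0.0581, and without the normalization factors it was 0.43 with an adjusted p of 0.0898. The fall in WT had 0.0511 without replicate 2 at 8 hr, and that in S513A had 0.0996 without replicate 1 at 4 hr, 0.0934 without replicate 2 at 8 hr and 0.0983 without normalization factors. *Stat5a* shares 8.21% of its 50-base stretches of exon with *Stat5b*, and its exons overlap those of *Stat3* by 72 bases on the other strand. *Stat5b* did not pass the test in any of the 4 comparisons with 0 hr, at -0.30 to -0.02 on the log2 scale. *Stat5a* and *Cish* were the 2 members called lower at 8 hr than at 4 hr in WT, where 7.49% of all genes were called lower, and no member was called higher (6.73% of all genes). S513A had 2 members lower, again *Stat5a* and *Cish* (8.99% of all genes), and 1 higher, *Stat3* (9.31% of all genes).

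*Stat4*, the STAT of IL-12 signalling in lymphocytes, was rare and rose with LPS. It spans chr1:51987148-52107189 (plus strand). WT libraries held 13 and 13 reads at 0 hr, 20 and 25 at 4 hr, then 27 and 26 at 8 hr, and S513A libraries 11 and 12, then 32 and 20, then 25 and 16. All libraries with LPS were above those without, in units of CPM. The log2 fold change at 4 hr was 1.06 in WT (SE 0.28, adjusted p = 0.0116) and 1.42 in S513A (adjusted p = 0.00200). By 8 hr the values were 1.38 for WT and 0.95 for S513A (adjusted p = 0.00331 and 0.0214). From summed reads the folds at 4 hr were 2.13 (exact interval 1.29 to 3.59) and 2.81 (1.69 to 4.81).

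NK cells, which use *Stat4*, were represented by *Klrk1* and *Gzmb*, the 2 of 7 NK cell markers in the table. Their summed level was 0.0697 to 0.176 CPM at 0 hr and 1.23 to 3.83 CPM with LPS, and each was at 0 reads in at least 1 library. Their part in the rise of *Stat4* was not tested. The WT rise of *Stat4* at 4 hr had an adjusted p of 0.0662 without replicate 1 at 0 hr, 0.0718 without replicate 2 at 4 hr and 0.0584 without normalization factors. In S513A at 8 hr it had 0.0880 and 0.0704 without replicates 1 and 2 at 0 hr and 0.137 without replicate 1 at 8 hr. In the annotation 21.7% of the 50-base stretches of *Stat4* exons are shared with *Gm28177*, a processed transcript on the same strand, so some reads could belong to either.

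*Stat3*, which carries IL-6 and IL-10 signals, changed little. Its gene is at chr11:100885098-100939540 (minus strand). Log2 CPM in WT was 7.21 in both libraries without LPS, 6.94 and 7.27 at 4 hr, then 7.14 and 7.21 at 8 hr, with all 3 time points overlapping. S513A libraries were at 6.86 and 6.86, then 7.06 and 6.90, then 7.57 and 7.26. The WT differences from 0 hr were -0.10 at 4 hr and -0.04 at 8 hr (adjusted p = 0.590 and 0.859). In S513A *Stat3* was 0.12 higher at 4 hr (adjusted p = 0.540) and rose by 0.55 at 8 hr (SE 0.14, adjusted p = 0.00897), with both libraries at 8 hr above the other S513A libraries.

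These small differences in *Stat3* depended on the scaling. Under quantile normalization the WT value at 4 hr was -0.46 with an adjusted p of 0.0247, and the S513A value at 8 hr was 0.34 with an adjusted p of 0.0789. The sign at 4 hr in S513A turned to -0.17 under quantile normalization and to -0.12 without normalization factors. The rise in S513A at 8 hr had an adjusted p of 0.0519 and 0.0503 without replicates 1 and 2 at 0 hr, and was 0.40 with an adjusted p of 0.0842 without replicate 1 at 8 hr. Between 4 and 8 hr in S513A the rise of 0.44 had an adjusted p of 0.0499, and it was past the threshold in only 9 of 25 alternatives. Of 10 known STAT3 target genes, 7 were called higher and 1 lower at 4 hr in WT, beside 22.6% and 18.7% of all genes. In S513A 7 were higher and 0 lower, beside 23.1% and 20.2% of all genes. *Ier3*, an early response gene, rose by 2.19 and 2.07 and *Tnfaip3*, an inhibitor of NF-kappaB, by 2.16 and 2.19, and both genes are also known to respond to NF-kappaB.

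*Stat6*, the STAT of IL-4 and IL-13, was the 1 member that fell, and by little. It lies at chr10:127642986-127660957 (plus strand). Log2 CPM in WT was 7.60 and 7.63 without LPS, 7.24 and 7.27 at 4 hr, then 7.26 in both libraries at 8 hr. For S513A it was 7.58 and 7.63, then 7.23 and 7.09, then 7.39 and 7.14. All libraries with LPS were below those without, and the genotypes overlapped at 0 and 8 hr. Its exons overlap those of *Nab2* by 40 bases on the other strand. The log2 fold change at 4 hr was -0.36 in WT (SE 0.11, unadjusted p = 0.00662, past the adjusted threshold) and -0.44 in S513A (adjusted p = 0.00676). After 8 hr the values were -0.36 for WT and -0.34 for S513A (adjusted p = 0.0251 and 0.0267).

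The direction of *Stat6* was the same under each scaling, with WT values at 4 hr of -0.64 without normalization factors and -0.74 under quantile normalization. The calls were close to the threshold, and leaving out 1 library ended them in WT at 4 hr (adjusted p = 0.0753 and 0.0969 without replicates 1 and 2 at 0 hr and 0.0508 without replicate 1 at 4 hr). In WT at 8 hr any of the 4 libraries did so, with 0.0921 and 0.114 without those at 0 hr and 0.0998 and 0.115 without those at 8 hr. In S513A at 4 hr the adjusted p was 0.0501 without replicate 2 at 0 hr and 0.0566 without replicate 2 at 4 hr. In S513A at 8 hr it was 0.0890 and 0.128 without those at 0 hr, and the value was -0.22 with an adjusted p of 0.191 without replicate 2 at 8 hr. Of 11 genes known as STAT6 targets in macrophages, 10 were tested. At 4 hr 2 rose and 4 fell in WT, where 22.6% of all genes were called higher and 18.7% lower. In S513A 2 rose and 3 fell, beside 23.1% and 20.2% of all genes, so the share that rose was near that of all genes. Among those that fell, *Clec10a*, a lectin of alternatively activated macrophages, was at -2.03 and -1.98, and *Arg1*, which degrades arginine, at -1.66 and -1.43. *Tgm2*, a transglutaminase, rose by 2.41 and 2.37 and *Il4ra*, a chain of the IL-4 receptor, by 0.83 and 0.75.

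Some calls did not hold when only the libraries compared were in the fit, which leaves fewer libraries to estimate the spread. In WT at 4 hr these were *Stat4*, *Stat6* and *Socs2* (adjusted p = 0.0626, 0.128 and 0.0542), and in S513A at 8 hr *Stat4* and *Stat6* (0.0684 and 0.0682). Between 4 and 8 hr in S513A they were *Stat3*, *Stat5a* and *Cish* (0.141, 0.0913 and 0.0602).

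**Figure D3:**
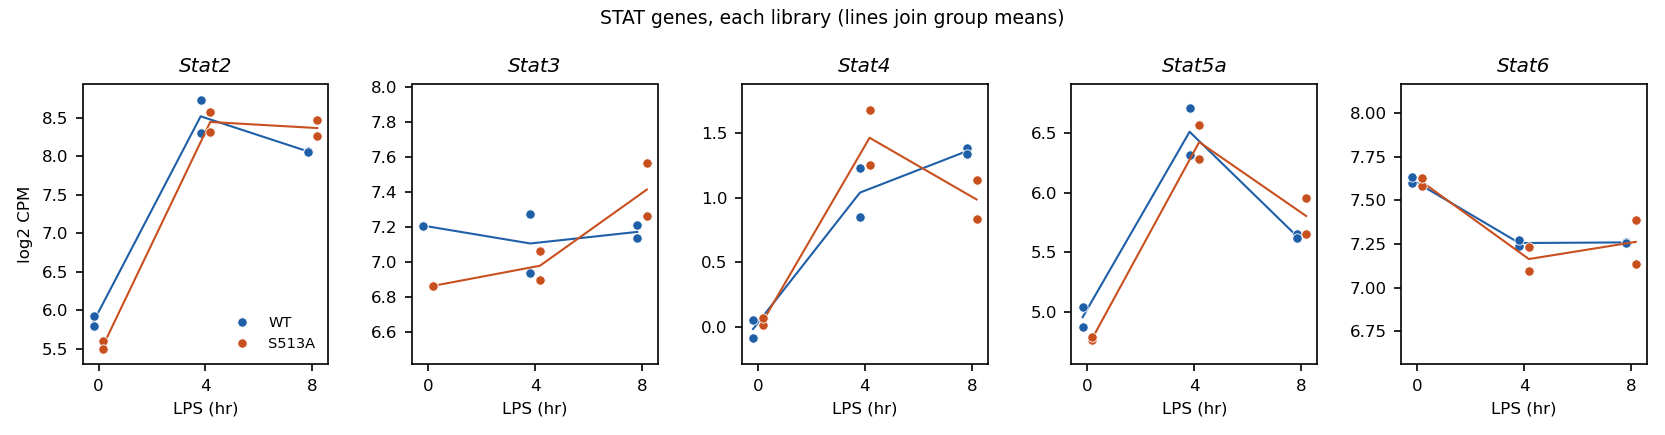
Log2 CPM (y axis, a separate range in each panel) of the 5 STAT genes in each library against hours of LPS (x axis), with WT in blue, S513A in orange and lines through the group means. *Stat2*, *Stat4* and *Stat5a* are higher in all libraries with LPS, *Stat6* is lower in all of them, and the WT libraries of *Stat3* overlap across time.

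Between genes, levels were compared as CPM per kilobase of exon (the union of exons in GENCODE M21), as a description with no test. The union takes in every annotated transcript, so a gene with long or many forms gets a lower value. It is 9527 bases for *Stat3* and 4402 for *Stat6*, whose WT means at 0 hr were 148 and 196 CPM. Among the 5 STAT genes in WT at 0 hr, *Stat6* came first with 44.6 CPM per kb, then *Stat3* with 15.5, *Stat2* with 9.78, *Stat5a* with 4.36 and *Stat4* with 0.256. At 4 hr *Stat2* was first with 62.7 and *Stat6* second with 34.7, and the libraries of *Stat3* and *Stat5a* overlapped (12.9 to 16.3 and 11.1 to 14.6 CPM per kb). The sum over the 5 genes went from 74.5 CPM per kb at 0 hr to 125 at 4 hr and 103 at 8 hr in WT, and from 68.5 to 118 and 117 in S513A. *Stat2* made up 13.1% of that sum at 0 hr and 44.0% at 8 hr in WT, and 11.5% and 47.7% in S513A.

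Among the 4 SOCS genes, *Socs3* held the largest share in every group, with 8.68 CPM per kb of 9.53 in WT at 0 hr and 68.4 of 84.1 at 4 hr. *Socs1* followed with 0.646 CPM per kb at 0 hr and 14.6 at 4 hr, and its share in WT went from 6.78% at 0 hr to 23.0% at 8 hr. *Cish* and *Socs2* together stayed far below, with 0.109 and 0.0888 CPM per kb at 0 hr, where their libraries overlapped. At 4 hr they reached 0.802 and 0.198 and no longer overlapped. The S513A sum was 6.51 CPM per kb at 0 hr, 76.1 at 4 hr and 67.5 at 8 hr.

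**Figure D4:**
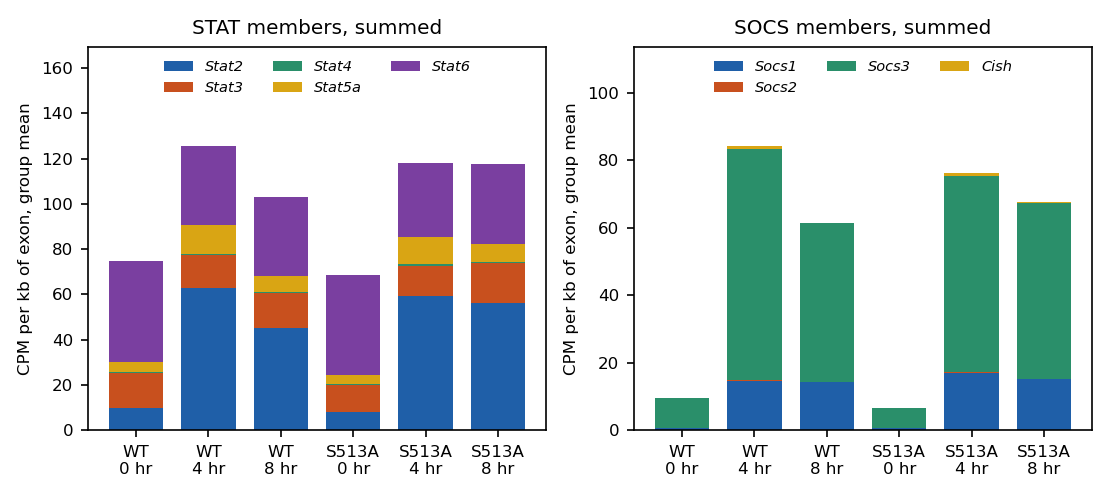
Group means in CPM per kilobase of exon (y axis) for the 5 STAT genes (left) and the 4 SOCS genes (right), stacked, in each genotype and time point (x axis). *Stat2* grows from 9.78 to 62.7 CPM per kb in WT while *Stat6* shrinks from 44.6 to 34.7, and *Socs3* is the largest segment of every SOCS bar.

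The second comparison was of S513A with WT, which asks whether the Regnase-1 mutation changed these genes. At 0, 4 and 8 hr, 0 of the 9 members passed the test, and among all genes 0.0337%, 0.0168% and 0.0337% did, which is 4, 2 and 4 genes. Over the mean of the time points 0 members passed (0.0673% of genes, or 8 genes). At an unadjusted p under 0.05 there were 3 members at 0 hr, 0 at 4 hr and 1 at 8 hr, beside 7.98%, 7.01% and 12.5% of all genes. A fit with voom weights called 0 members in each of these comparisons, and 0, 1 and 1 genes at the 3 time points.

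At 0 hr the lower members in S513A were *Socs3*, *Stat3* and *Cish*, named here after their values were seen. *Socs3* had 152 and 239 reads against 385 and 303 in WT, a log2 fold change of -0.61 (95% interval -0.99 to -0.23, unadjusted p = 0.00496, adjusted p = 0.586). *Stat3* was at -0.34 (-0.65 to -0.04, unadjusted p = 0.0294), and its 2 replicates differed by under 0.01 in either genotype. With only the 4 libraries at 0 hr in the fit, *Stat3* alone among the members passed, with an adjusted p of 0.0431, and 693 genes did over all genes. *Cish*, at 4 and 3 reads against 8 and 10, was at -1.02 (-1.76 to -0.28, unadjusted p = 0.0116), and from summed reads the ratio was 0.456 with an exact interval of 0.161 to 1.14. In all 3 genes, and in *Stat2* and *Stat5a*, both S513A libraries were below both WT libraries. How many of all genes separate in this way was not counted, so this is no result about the members as a set. Resident macrophage markers were also lower in S513A at 0 hr, at 829 and 768 CPM against 1871 and 1498 in WT, and at 50.8 and 73.1 against 87.4 and 93.0 CPM without *Fn1*. Their part in these differences was not tested.

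With LPS, *Socs2* was the member with the largest difference. Its 9 and 11 reads in S513A at 4 hr stood against 22 and 19 in WT, and its 12 and 7 reads at 8 hr against 18 and 16, with no overlap in CPM at either time. The log2 fold change was -0.75 at 4 hr (-1.53 to 0.02) and -0.83 at 8 hr (-1.60 to -0.06), with adjusted p of 0.622 and 0.395. From summed reads the ratios were 0.578 and 0.564, with exact intervals of 0.321 to 1.01 and 0.304 to 1.02. Of the more abundant genes, *Socs1* differed by 0.22 at 4 hr (-0.27 to 0.70) and *Stat2* by -0.07 (-0.41 to 0.26). *Stat6* had the narrowest intervals, at -0.25 to 0.23 at 0 hr, -0.33 to 0.15 at 4 hr and -0.23 to 0.24 at 8 hr. A difference above about 0.33 on the log2 scale thus lies outside each interval. At 4 hr both S513A libraries of *Stat6* were below both WT libraries, with a log2 fold change of -0.09.

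**Figure D5:**
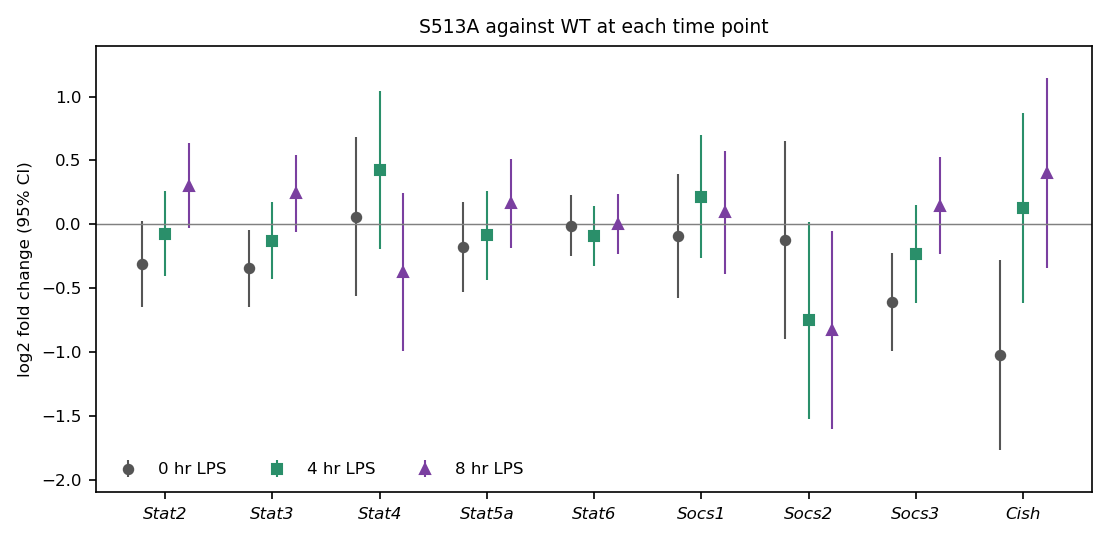
Log2 fold change of S513A against WT (y axis, 95% confidence interval) for each member at 0 hr (grey circles), 4 hr (green squares) and 8 hr (purple triangles) of LPS. No member passed the test at any time point. The values of *Stat2*, *Stat3*, *Stat5a*, *Socs3* and *Cish* go up from 0 to 4 and from 4 to 8 hr, while *Socs2* lies below 0 throughout.

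Whether the response to LPS differed between the genotypes was tested by the interaction of genotype and time. At 4 hr 0 of the 9 members and 0% of all genes passed in limma, and at 8 hr again 0 members and 0% of genes. With voom weights the counts were also 0. At an unadjusted p under 0.05 there was 1 member at 4 hr, *Cish*, beside 1.21% of all genes, and 4 members at 8 hr beside 20.2% of all genes. These 4 had a larger rise in S513A at 8 hr. The extra rise was 0.76 for *Socs3* (interval 0.22 to 1.30, adjusted p = 0.193), 0.61 for *Stat2* (0.14 to 1.09, adjusted p = 0.198), 0.59 for *Stat3* (0.16 to 1.02, adjusted p = 0.196) and 1.42 for *Cish* (0.38 to 2.47, adjusted p = 0.197). The median over the 9 members was 0.34, beside 0.01 over all genes. Each of these contrasts uses the 0 hr libraries, in which the same genes were lower in S513A. For *Stat5a* the extra rise was 0.34 and for *Socs2* -0.71, and neither passed (adjusted p = 0.366 and 0.398).

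With the main hidden component of the deviations between replicates as a term, 3 members passed at 0 hr (*Stat2*, *Stat3* and *Socs3*, all lower in S513A), 2 at 8 hr (*Stat2* and *Stat3*, higher) and 5 in the interaction at 8 hr (*Stat2*, *Stat3*, *Stat5a*, *Socs3* and *Cish*). In that fit 1569, 2231 and 3389 genes were called in these comparisons over all genes. The component was taken from the same deviations that measure the error, which lowers the spread by construction.

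Other genes of the pathway are given from lists of known members. Of the other SOCS genes at 4 hr, *Socs7* rose by 0.70 in WT and 0.56 in S513A, *Socs6* fell, at -1.24 and -1.22, and *Socs4* and *Socs5* did not pass the test in either genotype. Of the 4 Janus kinases, *Jak2*, the kinase of many cytokine receptors, rose by 3.20 and 3.14 at 4 hr, and *Tyk2*, a kinase of interferon and IL-12 receptors, by 0.54 and 0.61. At 8 hr 1 Janus kinase was higher in WT (19.4% of all genes) and 4 in S513A (20.9% of all genes), and for 0 of them did the interaction pass. Of 18 cytokines in the STAT-activating list, the table holds 12. All 12 rose at 4 hr in both genotypes, beside 22.6% of all genes in WT and 23.1% in S513A. Of these cytokines, 2 rose from 0 reads in all libraries at 0 hr. These 2, like *Il6* and *Il12b*, met the filter of 1 CPM in 2 libraries only through libraries with LPS. Such genes could be tested only because they were high there, so the count is no independent result. *Il6*, whose receptor acts through STAT3, went from 8 and 1 reads to 1361 and 903 in WT and from 3 and 3 to 1003 and 1420 in S513A. *Il12b*, a subunit of IL-12 and IL-23, went from 5 and 3 reads to 2155 and 1931 in WT and from 4 and 6 to 1807 and 1794 in S513A. Of 8 genes known as STAT5 targets, 6 rose and 1 fell at 4 hr in both genotypes. Among all genes, 22.6% were called higher and 18.7% lower in WT, and 23.1% and 20.2% in S513A. *Ccnd2*, a cyclin, was at 5.14 and 5.44, *Pim1*, a kinase, at 1.86 and 2.05, and *Bcl2l1*, an inhibitor of apoptosis, at -0.62 and -0.68. In each list of pathway genes named here, 0 genes passed the interaction at 4 or 8 hr.

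The genes whose log2 CPM followed each member most closely over the 12 libraries were found by Pearson correlation, given as a description, since all genes that respond to LPS share the same 3 time points. *Stat2* was followed by *Gm20559* and *Nod2* (r = 0.999 and 0.998), *Socs1* by *Cd38* and *Lmo4* (0.997 for each), *Socs3* by *Icosl* and *6530402F18Rik* (0.997 for each) and *Stat5a* by *Slc39a14* and *Ddhd1* (0.994 for each). *Cish* was followed by *Bcl2l2* and *Dis3* (0.987 and 0.984) and *Stat6* by *Zfp36l1* and *Tmem144* (0.984 for each). The weakest likeness was that of *Stat3* with *Ap3d1* and *Sipa1* (0.960 and 0.948), *Stat4* with *Bysl* and *Kri1* (0.954 and 0.947) and *Socs2* with *B3gnt9* and *Marco* (0.922 and 0.854). Among the members themselves, the highest value was r = 0.991, for *Stat2* with *Socs3*, and the lowest was r = -0.945, for *Stat6* with *Socs1*.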

How the data were processed

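RNA-seq of PECs from WT and S513A mice was analysed, with 2 libraries at each of 0, 4 and 8 hr of LPS. Per the labels and methods, polyA RNA was mapped on mm10 with HISAT2 as paired-end and unstranded and counted with featureCounts 1.6.3. The authors deposited log2 CPM values, normalized with a factor per library (0.877 to 1.15). The annotation, the strand setting of the counting and the filter are not given in the sources used here, and the methods state no test for this table. Reads were recovered from the deposited log2 values (largest departure from a whole read 0.00103).

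Limma 3.58.1 (R 4.3.3) was fitted to the deposited log2 values of the 11885 genes that reached 1 CPM in 2 or more libraries, with a mean for each of 6 groups, a prior that follows the mean, and 6 residual degrees of freedom. P-values are two-sided and adjusted by Benjamini-Hochberg over all genes, with a threshold of 0.05. The model was tested on simulated data. Exact intervals on summed reads (95%, Clopper-Pearson) and the floor of 3 reads cover counting error only. Positions and exon lengths came from GENCODE M21, and promoter sequences from RefSeq. Named genes are the members, the 2 with the largest rise and fall at 4 hr in WT among those called in both genotypes for each list, and the 2 most alike to each member. The members and lists were chosen with earlier results of these data known. Alternatives were other filters, scalings, priors, pseudocounts and weights, replicate blocks, a hidden factor, fits of only the groups compared and each library left out. The difference between the genotype contrasts at 4 and 8 hr was tested after the values were seen. *Socs2* has no promoter sequence here. A further gene of the lists is not reported here.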

Additional observations from a re-analysis of the deposited data

Results flagged for a closer look

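For 4 members every S513A library was below every WT library at 0 hr and above every WT library at 8 hr. The share of all genes that separate in this way was not counted. In the interaction at 8 hr, 20.2% of all genes had an unadjusted p under 0.05. At 8 hr the log2 fold change of S513A against WT was 0.30 for *Stat2*, 0.24 for *Stat3*, 0.15 for *Socs3* and 0.40 for *Cish*, and at 0 hr it was -0.31, -0.34, -0.61 and -1.02. The interaction of genotype and LPS at 8 hr, which tests this difference, did not pass for any of the 4 (adjusted p = 0.198, 0.196, 0.193 and 0.197). All 4 contrasts use the same 4 libraries at 0 hr and the same 4 at 8 hr. Resident macrophage markers were also lower in S513A at 0 hr, at 829 and 768 CPM against 1871 and 1498 in WT, while at 8 hr the genotypes lay at 2594 and 1571 against 1800 and 1616 CPM. Their part in the difference was not tested.

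*Stat4* was higher in both S513A libraries than in both WT libraries at 4 hr (log2 fold change 0.42) and lower at 8 hr (-0.37). *Socs3* was lower in both at 4 hr (-0.23) and higher at 8 hr (0.15). A test of the difference between the genotype contrasts at 8 and 4 hr, chosen after the values were seen, gave -0.80 for *Stat4* (adjusted p = 0.280) and 0.38 for *Socs3* (adjusted p = 0.371). It called 0 genes over all genes tested, and 18.9% of genes had an unadjusted p under 0.05.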

How the results depend on the processing

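Of the 35 calls of members, all of them in LPS comparisons, 20 held under every alternative, and of 2601 member values compared, none that was called on either side changed sign. With a mean of at least 5 CPM required, which leaves out *Stat4*, *Socs2* and *Cish*, 5 members in place of 8 were called in WT at 4 hr and 1 in place of 2 between 4 and 8 hr. With the hidden factor as a term, 4 members in place of 2 were called between 4 and 8 hr in WT, 3 in place of 0 in S513A against WT at 0 hr, 2 in place of 0 at 8 hr and 5 in place of 0 in the interaction at 8 hr. With only the groups compared in the fit, 5 in place of 8 were called in WT at 4 hr, 0 in place of 3 between 4 and 8 hr in S513A, and 1 in place of 0 in S513A against WT at 0 hr.

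Leaving out 1 library gave 5 to 8 members called in WT at 4 hr, 5 to 8 in WT at 8 hr, 0 to 4 between 4 and 8 hr in WT, 6 to 7 in S513A at 4 hr, 5 to 8 in S513A at 8 hr, 0 to 3 between 4 and 8 hr in S513A, and 0 in each genotype contrast and interaction. A group left with 1 library was assumed to vary like the others.

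Counts over all genes moved by over 1.5 times as follows. The hidden factor gave 6216 genes in place of 4079 in WT at 8 hr, 4156 in place of 1690 between 4 and 8 hr in WT, 5097 in place of 2175 in S513A, 1569, 1058 and 2231 in place of 4, 2 and 4 in S513A against WT at 0, 4 and 8 hr, 288 in place of 8 in their mean and 3389 in place of 0 in the interaction at 8 hr. With only the groups compared, 656 and 596 genes were called between 4 and 8 hr in WT and S513A, and 693, 0 and 1 in S513A against WT at 0, 4 and 8 hr. The other filters, weights, priors, scalings and pseudocount gave 0 to 2 genes where the genotype contrasts at single times changed, and 3 to 5 in their mean. Without a library, the lowest and highest counts were 554 and 2847 between 4 and 8 hr in WT, 665 and 738 in S513A where that count changed, 2489 and 2659 in WT at 8 hr, 2994 and 3152 in S513A at 8 hr, and, in the interaction at 8 hr, 1 without WT replicate 1 at 0 hr and 651 without S513A replicate 2 at 8 hr. Where the genotype contrasts changed without a library, they had 0 to 2 genes at single times and 4 or 5 in their mean.

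Without normalization factors, the calls over all genes split into 1479 higher and 3123 lower in WT at 8 hr (2309 and 1770 with them), 1769 and 3633 in S513A at 4 hr (2741 and 2396), 1954 and 2768 in S513A at 8 hr (2486 and 2258) and 1611 and 608 between 4 and 8 hr in S513A (1106 and 1069). Under quantile normalization WT at 8 hr split into 1925 and 2366.

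The labels do not say whether the replicate numbers pair the libraries. Over all pairs of groups, the correlation of same-numbered deviations ran from -0.41 to 0.42. Within S513A it was 0.147, 0.0867 and 0.417, and within WT -0.0330, 0.0807 and -0.0984. With only 2 libraries in each group, these values cannot settle the pairing. With the replicate block, 8, 7 and 2 members were called in the 3 WT comparisons, 7, 8 and 2 in those of S513A, and 0 in each genotype contrast and interaction. With the replicate block within genotype the LPS counts were 8, 7, 2, 7, 8 and 3. Depth limits *Cish*, *Socs2* and *Stat4*, which had at most 67, 22 and 32 reads in a library.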

Other observations

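Of 25 receptor chains that feed the STATs, 24 were tested. At 4 hr 9 rose and 4 fell in WT, where 22.6% of all genes were called higher and 18.7% lower, and 10 rose and 5 fell in S513A, beside 23.1% and 20.2% of all genes. The share that fell was thus near that of all genes. *Il15ra*, the IL-15 binding chain, rose by 2.83 on the log2 scale in WT and 3.32 in S513A. *Il2ra*, the high-affinity chain of the IL-2 receptor, had 3 and 6 reads in WT at 0 hr and 13 and 14 at 4 hr. In S513A it was at 0 reads in both libraries at 0 hr and at 14 and 5 reads at 4 hr. With the 0 hr group set to a floor of 3 reads, the ratio was 7.87. Counting error in the reads at 4 hr is not covered by that value. *Il6ra*, the IL-6 binding chain, fell, at -1.38 in WT and -1.49 in S513A, and so did *Il7r*, the IL-7 binding chain, at -1.24 in S513A at 4 hr and -0.81 in WT at 8 hr.

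Of 13 other negative regulators of the pathway, 6 rose and 2 fell at 4 hr in WT, where 22.6% of all genes were called higher and 18.7% lower. In S513A 6 rose and 1 fell, beside 23.1% and 20.2% of all genes. The share that fell was thus not above that of all genes. *Usp18*, which restrains the type I interferon receptor, rose by 4.29 and 4.70, and *Ptpn2*, a phosphatase of JAK and STAT proteins, by 1.06 and 1.12. *Pias3*, an inhibitor of STAT3, fell, at -0.47 and -0.51 (adjusted p = 0.0473 and 0.0313). Some genes stand in more than 1 list, among them *Usp18*, *Il4ra*, *Pim1* and *Osm*. In both lists 0 genes passed the interaction of genotype and LPS at 4 or 8 hr.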
